A study of Homo sapiens with 6 samples.

Results

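The genes described here are those of glucose uptake, glycolysis and lactate handling together with the HIF factors and a panel of classic HIF targets. They were chosen by name, 37 symbols of the 26364 listed, and all 37 were present. Glycolysis breaks glucose down to pyruvate in the cytosol. Lactate dehydrogenase then reduces pyruvate to lactate, which leaves the cell through monocarboxylate transporters, while pyruvate dehydrogenase, held in check by the PDK kinases, feeds it to the mitochondria. When oxygen falls, prolyl hydroxylases of the EGLN family stop marking HIF-alpha proteins for destruction, and HIF1A or EPAS1 (HIF-2alpha) with ARNT raise the transcription of many glycolytic genes, of CA9 and of ADM. HIF1A is controlled mostly at the protein level, so its mRNA is not a readout of its activity.

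RNAseq was performed in A673/TR/shEF cells, an engineered line of the Ewing sarcoma cell line A673 whose shRNA against the EWSR1::FLI1 mRNA is switched on by doxycycline. Ewing sarcoma is a tumor of bone and soft tissue driven by this fusion transcription factor. EWSR1::FLI1high cells (n = 3) were left untreated, and EWSR1::FLI1low cells (n = 3) received doxycycline at 1 µg/mL for 72 h, and both carried the same shRNA construct and were grown in DMEM with serum, blasticidin and zeocin. Knockdown and doxycycline came together in these samples, so their effects cannot be told apart, and 1 cell line was studied. The design asks which genes depend on the level of the fusion.

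Reads on genes numbered 6980361 to 16658933 per library. FLI1, whose 3′ part is in the fusion mRNA, was at 11.3, 12.7 and 14.2 FPKM, a level per transcript length and library size, in EWSR1::FLI1high and at 2.91, 4.29 and 3.68 FPKM in EWSR1::FLI1low cells, a log2 fold change of -1.57 (SE 0.18, limma adjusted p = 0.000676). The Ewing sarcoma markers CD99, NKX2-2, NR0B1, STEAP1 and PRKCB were present in every library, and each EWSR1::FLI1low library was below each EWSR1::FLI1high library for all of them. The summed FPKM of PTPRC, PECAM1 and EPCAM, which mark leukocytes, endothelium and epithelium, was 1.16 to 1.55 in EWSR1::FLI1high and 1.74 to 2.41 in EWSR1::FLI1low cells. None of these 3 genes was at 0, PECAM1 was at 0.278, 0.366 and 0.348 against 0.934, 1.56 and 0.879 FPKM (adjusted p = 0.0333), and the part of such cells in the results was not tested. Replicate 1 of EWSR1::FLI1low stood apart: its FPKM summed to 255956 over all genes, against 334614 to 366060 in the other libraries. Replicates 2 and 3 of EWSR1::FLI1low also differed, with a chi-square per degree of freedom of 20.2 between their reads. That value was 29.0 and 31.5 for the pairs with replicate 1 and 4.25 to 6.27 within EWSR1::FLI1high, and it also grows with depth. Replicate 1 was the lowest EWSR1::FLI1low library for 30 of the 37 genes, against 57% of all genes tested. For some of the genes whose result rests on replicate 1, but not for all, the fit without it is also given.

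Upon EWSR1::FLI1 knockdown, 4 of the 35 genes that passed the level filter (a mean of at least 0.5 FPKM) rose: ADM, EPAS1, CA12 and ALDOC. None fell at the same limit, an adjusted p under 0.01 in limma over 15504 genes. The 4 genes were 11.4% of those tested, beside 4.51% of all genes that rose and 3.37% that fell. By limma, 3 of the 35 were lower at an unadjusted p under 0.05 (18.7% of all genes), and limma-voom on the recovered reads also called 0 lower. At an adjusted p under 0.05, 7 genes (20%) were higher, beside 9.87% of all genes, and 2 (5.71%) were lower, beside 9.91%. Each EWSR1::FLI1low library was above each EWSR1::FLI1high library for 8 of the 35 genes (22.9%, against 17.5% of all genes) and below for 6 (17.1%, against 23.6%). The median log2 fold change was 0.05 over the 35 genes and -0.05 over all genes tested. Without EWSR1::FLI1low replicate 1, 9 genes were called higher: HK1, PFKFB3, CA12, BNIP3L, HIF1A, EPAS1, EGLN3, ADM and P4HB. In that fit 9.37% of all genes were called higher.

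**Figure D1:**
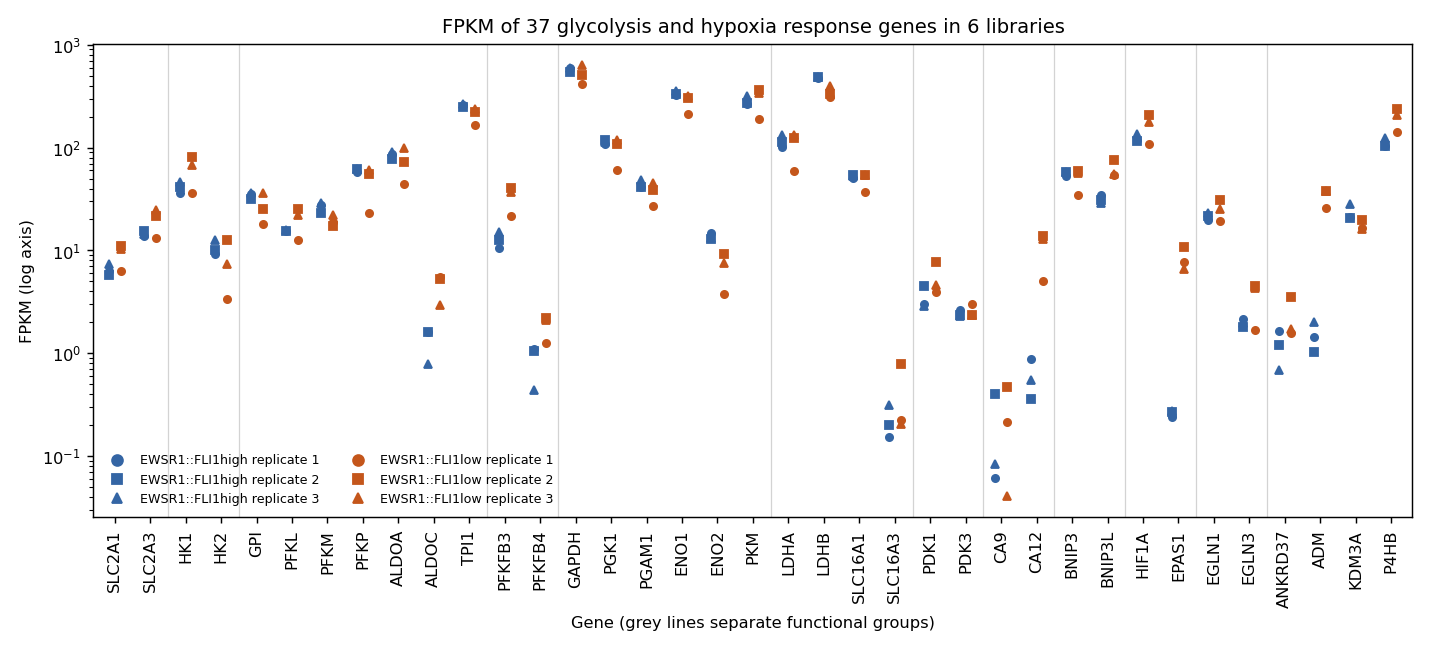
FPKM of the 37 genes (horizontal axis, grouped by function) in the 6 libraries on a log axis, blue for EWSR1::FLI1high and orange for EWSR1::FLI1low, with the replicate number as symbol. ADM, EPAS1 and CA12 show the widest gaps between the colours, many glycolytic enzymes overlap or nearly touch, with EWSR1::FLI1low replicate 1 (orange circle) often the lowest point, and CA9 and SLC16A3 lie below 1 FPKM in every library.

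ADM encodes adrenomedullin, a secreted vasodilator peptide, and lies at chromosome 11, 10326620 to 10328944 (plus strand, GRCh37). It was at 1.44, 1.03 and 2.03 FPKM in EWSR1::FLI1high and at 25.7, 38.0 and 38.0 FPKM in EWSR1::FLI1low cells. The groups were far apart, and the ratio of the group means was 22.6. The log2 fold change on the log2(FPKM + 1) scale was 3.80 (SE 0.22, limma adjusted p = 3.66e-05), the most positive of the 35, and ADM was called in all 15 alternative fits (adjusted p from 5.96e-06 to 0.00108). In bulk libraries, a change in the share of cells with a transcript and a change in its level per cell cannot be told apart.

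EPAS1 encodes HIF-2alpha and spans chromosome 2, 46520806 to 46613836 (plus strand). It was close to silent in EWSR1::FLI1high cells, at 0.240, 0.267 and 0.275 FPKM from 13, 11 and 11 reads. In EWSR1::FLI1low cells it reached 7.79, 10.7 and 6.56 FPKM from 358, 455 and 528 reads. The ratio of the means was 32.1 and the log2 fold change 2.87 (SE 0.19, limma adjusted p = 6.09e-05), again called in all 15 alternative fits. EPAS1 is abundant in endothelium. The endothelial marker PECAM1 was at 0.278, 0.366 and 0.348 FPKM in EWSR1::FLI1high cells. In EWSR1::FLI1low cells it was at 0.934, 1.56 and 0.879 FPKM, each above the EWSR1::FLI1high libraries (limma adjusted p = 0.0333). A part of endothelial cells in the rise of EPAS1 was not tested.

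CA12, on chromosome 15 from 63613577 to 63674045 (minus strand), encodes a membrane-bound carbonic anhydrase that hydrates carbon dioxide at the cell surface. It was at 0.883, 0.358 and 0.552 FPKM in EWSR1::FLI1high and at 5.08, 13.9 and 12.9 FPKM in EWSR1::FLI1low cells. The groups did not overlap, although EWSR1::FLI1low replicate 1 was well under the other 2 libraries. The ratio of the means was 17.8 and the log2 fold change 2.77 (SE 0.33, limma adjusted p = 0.000748), and the call held in all 15 alternative fits.

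CA9, the related anhydrase often used as a mark of hypoxia, was not among the genes that could be tested. It was listed at 0.0613, 0.404 and 0.0831 FPKM in EWSR1::FLI1high and at 0.217, 0.471 and 0.0413 FPKM in EWSR1::FLI1low cells. These values rest on 1, 5 and 1 reads against 3, 6 and 1 reads, while 3 reads, the limit that a count of 0 allows, correspond to 0.124 to 0.249 FPKM. A difference in CA9 was not detectable at this depth, and of the genes named as markers of this gene set (SLC2A1, LDHA and CA9) CA9 was close to absent in both conditions.

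ALDOC encodes the brain-type aldolase, which splits fructose bisphosphate into triose phosphates, and lies on chromosome 17 from 26900133 to 26903966 (minus strand). It was at 1.62, 1.596 and 0.782 FPKM in EWSR1::FLI1high and at 5.52, 5.24 and 2.95 FPKM in EWSR1::FLI1low cells. All 3 EWSR1::FLI1low libraries were above the EWSR1::FLI1high libraries, at low depth (10 to 28 reads against 71 to 81). The log2 fold change was 1.24 (SE 0.24, limma adjusted p = 0.00895). This call was close to the limit: it held in 4 of 15 alternative fits (adjusted p from 0.00128 to 0.0423), and without EWSR1::FLI1low replicate 1 the adjusted p was 0.0174.

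**Figure D2:**
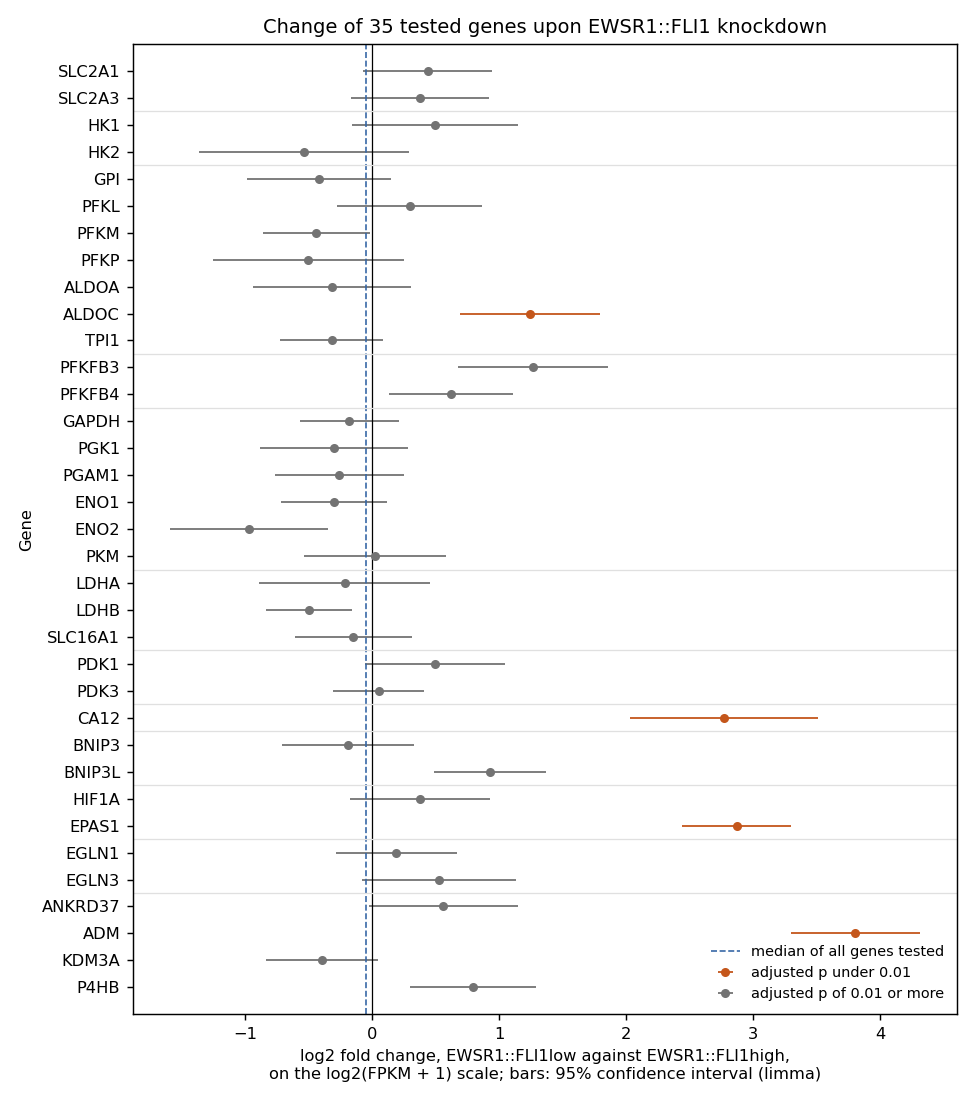
log2 fold change (EWSR1::FLI1low against EWSR1::FLI1high, log2(FPKM + 1) scale) of the 35 tested genes with the 95% confidence interval from limma, orange for an adjusted p under 0.01. ADM, EPAS1, CA12 and ALDOC stand to the right, most glycolytic enzymes lie slightly left of 0 with intervals that include it, and the dashed line is the median of all genes tested (-0.05).

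The proximal promoters of the called genes and of LDHA and CA9, a pair of textbook HIF targets, are shown. They set beside these values the ACGTG form of the core of the hypoxia response element, or its reverse complement CACGT. The GCGTG form of the core was not searched. Each run is the 250 bases upstream of a RefSeq gene start (GRCh38.p14), 5′ to 3′ on the strand of the gene, with every match in capitals. ADM is chr11:10304823-10305072 (plus strand), EPAS1 chr2:46297157-46297406 (plus), CA12 chr15:63381847-63382096 (minus), ALDOC chr17:28576896-28577145 (minus), LDHA chr11:18394313-18394562 (plus, the first of its 2 starts) and CA9 chr9:35673678-35673927 (plus).
ADM: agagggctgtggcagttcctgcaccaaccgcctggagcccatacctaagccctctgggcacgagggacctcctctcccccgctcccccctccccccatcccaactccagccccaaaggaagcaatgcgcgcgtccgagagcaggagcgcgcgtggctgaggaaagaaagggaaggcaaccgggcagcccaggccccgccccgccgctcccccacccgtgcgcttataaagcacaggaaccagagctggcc
EPAS1: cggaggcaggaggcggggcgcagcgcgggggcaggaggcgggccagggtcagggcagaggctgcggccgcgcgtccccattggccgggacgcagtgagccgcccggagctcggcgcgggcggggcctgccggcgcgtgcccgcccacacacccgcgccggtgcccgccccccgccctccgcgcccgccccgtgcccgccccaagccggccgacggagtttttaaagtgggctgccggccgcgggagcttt
CA12: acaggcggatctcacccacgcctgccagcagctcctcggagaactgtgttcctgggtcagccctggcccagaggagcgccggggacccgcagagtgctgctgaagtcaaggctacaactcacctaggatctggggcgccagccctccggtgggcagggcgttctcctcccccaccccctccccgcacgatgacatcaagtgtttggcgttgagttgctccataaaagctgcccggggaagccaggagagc
ALDOC: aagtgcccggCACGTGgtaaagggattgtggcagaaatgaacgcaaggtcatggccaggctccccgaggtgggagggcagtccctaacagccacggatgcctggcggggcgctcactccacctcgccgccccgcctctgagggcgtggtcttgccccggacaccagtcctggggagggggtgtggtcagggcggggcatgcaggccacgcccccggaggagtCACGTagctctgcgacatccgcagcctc
LDHA: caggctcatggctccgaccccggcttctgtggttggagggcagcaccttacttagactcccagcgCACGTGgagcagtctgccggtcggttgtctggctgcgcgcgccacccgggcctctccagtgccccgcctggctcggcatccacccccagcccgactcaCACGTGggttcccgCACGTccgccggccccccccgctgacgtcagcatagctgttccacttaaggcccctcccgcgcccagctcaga
CA9: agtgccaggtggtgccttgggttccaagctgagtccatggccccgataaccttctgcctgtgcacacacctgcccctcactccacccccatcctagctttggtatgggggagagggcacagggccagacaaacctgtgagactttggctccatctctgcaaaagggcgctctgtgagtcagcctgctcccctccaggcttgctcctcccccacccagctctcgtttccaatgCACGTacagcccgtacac

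A match to the ACGTG form was present in the LDHA, CA9 and ALDOC windows and in none of the ADM, EPAS1 and CA12 windows. The GCGTG form, which was not counted, is present in the ADM and EPAS1 windows. Its reverse complement CACGC is present in the CA12 window, so that these windows do not lack the core. Counted from the gene start, the first base of the match lay 18 bases upstream in CA9, and the matches nearest to the start lay 73 bases upstream in LDHA and 28 bases upstream in ALDOC. Where ACGTG and CACGT overlap, as in cacgtg, both were counted, which gave 5 matches in LDHA and 3 in ALDOC. The window of the other LDHA start, not shown here, held no match. Of the 37 genes, 34 had a promoter entry (BNIP3L, SLC2A3 and SLC16A1 did not). The ACGTG form was in at least 1 window of 19 of the 34 (55.9%), among them 10 of the 15 glycolytic enzymes. Over all genes with an entry the share was 21.7%. The 34 genes had more windows per gene (62 windows, beside 35116 windows of 27305 genes), which makes a match in at least 1 window easier. Over all windows of this length the share was 18.5%, against 35.5% of the 62 windows of the 34 genes. Of the 4 genes that rose, 1 held the ACGTG form, ALDOC. These are matches of letters, with no measurement of binding.

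Glucose enters the cell through SLC2A1 (GLUT1) and SLC2A3 (GLUT3). SLC2A1 was at 6.28, 5.71 and 7.39 FPKM in EWSR1::FLI1high and at 6.37, 11.1 and 10.4 FPKM in EWSR1::FLI1low cells, so that the groups overlapped through EWSR1::FLI1low replicate 1. The log2 fold change was 0.44 (95% interval -0.07 to 0.94, limma adjusted p = 0.202), and 0.66 without that library (adjusted p = 0.0184). SLC2A3 was at 13.2 to 24.7 FPKM in the 6 libraries, and its log2 fold change was 0.38 (limma adjusted p = 0.304), or 0.63 without that library (adjusted p = 0.0131). Neither was past 0.01. SLC2A3 made up 69.3% ± 3.52 (SD, n = 3) of the summed FPKM of the 2 transporters in EWSR1::FLI1high and 67.9% ± 2.26 (SD, n = 3) in EWSR1::FLI1low cells, 2 overlapping ranges.

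Hexokinases trap glucose as glucose 6-phosphate, and here the 2 isozymes had fold changes of opposite sign. HK1 was at 36.0, 41.6 and 45.8 FPKM in EWSR1::FLI1high and at 36.4, 80.3 and 67.1 FPKM in EWSR1::FLI1low cells. HK2, the isozyme of muscle and of many tumors, was at 9.13, 10.0 and 12.8 FPKM in EWSR1::FLI1high and at 3.41, 12.7 and 7.38 FPKM in EWSR1::FLI1low cells. Neither passed the test (log2 fold changes 0.50 and -0.53, limma adjusted p = 0.259 and 0.340), and EWSR1::FLI1low replicate 1 was the lowest of its group for both. Without that library HK1 was called higher (log2 fold change 0.83, limma adjusted p = 0.00658), and HK2 was not called (-0.11, adjusted p = 0.777). Within a library, the share of HK2 in the summed FPKM of the pair does not depend on scaling between libraries. It was 20.2%, 19.4% and 21.8% in EWSR1::FLI1high and 8.57%, 13.7% and 9.91% in EWSR1::FLI1low cells, so that every EWSR1::FLI1low library was below every EWSR1::FLI1high library.

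The glycolytic enzymes between hexose phosphate and pyruvate were mostly at high levels in both conditions. Of 15 enzyme genes from the hexokinases to PKM, ALDOC rose, 14 did not pass the test, 11 had a negative and 4 a positive log2 fold change, and the median was -0.30. Beside them, 4.51% of all genes tested rose, 8492 of 15504 had a negative log2 fold change and the median was -0.05. The median of the 15 enzymes was between -0.42 and -0.04 over the leave-one-out fits, and it was closest to 0 without EWSR1::FLI1low replicate 1. It was -0.11 after quantile normalization and -0.16 with equal FPKM sums, a scaling that moved the median of all genes by 0.10. GAPDH, the most abundant, was at 592, 546 and 595 FPKM in EWSR1::FLI1high and at 419, 505 and 628 FPKM in EWSR1::FLI1low cells. Its log2 fold change was -0.18 (95% interval -0.57 to 0.21, limma adjusted p = 0.511), with the same sign in all 15 alternative fits, and its reads may be shared with its many processed pseudogenes.

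ENO1 (324, 335 and 351 FPKM in EWSR1::FLI1high, 213, 301 and 317 FPKM in EWSR1::FLI1low cells), TPI1 (167 to 266 FPKM) and PFKM (17.2 to 28.9 FPKM) were below the EWSR1::FLI1high range in every EWSR1::FLI1low library, with log2 fold changes of -0.30, -0.32 and -0.44. None of them passed the test (limma adjusted p = 0.287, 0.245 and 0.133), and each overlaps a gene on the opposite strand, so that their reads may be mixed. Without EWSR1::FLI1low replicate 1 the log2 fold changes were -0.12, -0.16 and -0.42. ENO2, the neuronal enolase, was at 14.7, 12.8 and 13.2 FPKM in EWSR1::FLI1high and at 3.76, 9.31 and 7.47 FPKM in EWSR1::FLI1low cells. The groups were apart, and the log2 fold change of -0.96 (SE 0.27) had an adjusted p of 0.0386 in limma, past 0.05 but not past 0.01, and without EWSR1::FLI1low replicate 1 it was -0.64 (adjusted p = 0.0196). PKM, which makes pyruvate, was at 264, 269 and 317 FPKM against 192, 360 and 341 FPKM, overlapping groups with a log2 fold change of 0.02 (95% interval -0.53 to 0.58), or 0.31 without that library (adjusted p = 0.0909).

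Summed over the 15 enzymes, the level was 1871, 1832 and 1996 FPKM in EWSR1::FLI1high and 1243, 1837 and 2012 FPKM in EWSR1::FLI1low cells. EWSR1::FLI1low replicate 1 was below the other libraries, and the other 2 EWSR1::FLI1low libraries were close to the EWSR1::FLI1high range. As a share of all FPKM in the library, the enzymes held 0.559%, 0.536% and 0.545% in EWSR1::FLI1high and 0.486%, 0.543% and 0.560% in EWSR1::FLI1low cells. By that measure too, replicate 1 was the lowest of the 6 and the groups overlapped.

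**Figure D3:**
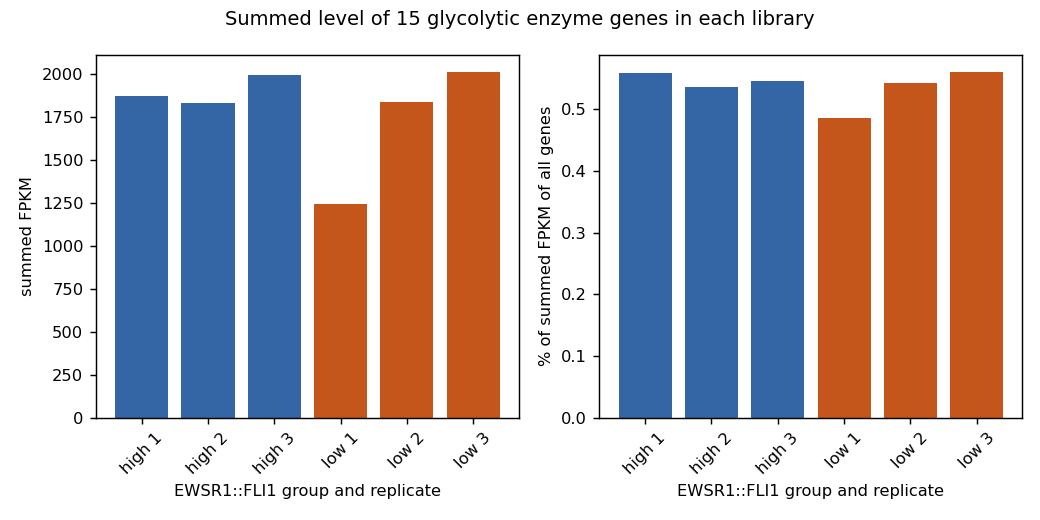
Summed FPKM of the 15 glycolytic enzyme genes in each library (left) and the same sum as a percentage of the FPKM of all genes (right), blue for EWSR1::FLI1high and orange for EWSR1::FLI1low. EWSR1::FLI1low replicate 1 is the lowest bar in both panels (1243 FPKM and 0.486%), and the other 5 libraries lie between 1832 and 2012 FPKM.

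PFKFB3 and PFKFB4 make and remove the sugar bisphosphate that activates phosphofructokinase and so set the pace of the upper pathway. PFKFB3 was at 10.6, 12.5 and 15.1 FPKM in EWSR1::FLI1high and at 21.5, 40.6 and 36.6 FPKM in EWSR1::FLI1low cells. The groups did not overlap, and the log2 fold change was 1.27 (SE 0.26), with an adjusted p of 0.0113 in limma. It fell just short of the limit and was past it in 7 of 15 alternative fits, among them the one without EWSR1::FLI1low replicate 1 (adjusted p = 0.000758) and the one with the replicate number as a block (adjusted p = 0.00348). PFKFB4 was low, at 0.444 to 1.09 FPKM against 1.26 to 2.201 FPKM, and its log2 fold change was 0.62 (limma adjusted p = 0.0753).

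Lactate dehydrogenase is a tetramer of the LDHA and LDHB subunits. LDHA was at 102, 112 and 133 FPKM in EWSR1::FLI1high and at 59.8, 124 and 131 FPKM in EWSR1::FLI1low cells. The groups overlapped, with a log2 fold change of -0.21 (95% interval -0.88 to 0.46, limma adjusted p = 0.660) whose sign turned after quantile normalization (0.01) and without EWSR1::FLI1low replicate 1 (0.15). LDHB, at 478, 490 and 484 FPKM, was the more abundant subunit gene, and it was at 308, 333 and 393 FPKM after knockdown. All 3 EWSR1::FLI1low libraries were below the EWSR1::FLI1high libraries, with a log2 fold change of -0.49 (SE 0.15) and an adjusted p of 0.0473 in limma, short of the 0.01 limit. LDHB held 80.7% ± 2.06 (SD, n = 3) of the summed FPKM of both subunits in EWSR1::FLI1high and 77.2% ± 5.78 (SD, n = 3) in EWSR1::FLI1low cells, and these ranges overlapped.

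Lactate export through SLC16A1 (MCT1) was at 36.6 to 54.5 FPKM in all libraries, with a log2 fold change of -0.15 (95% interval -0.61 to 0.31) that turned without EWSR1::FLI1low replicate 1 (0.04) and after quantile normalization (0.06). SLC16A3 (MCT4), the exporter usually induced by HIF, was listed at 0.154 to 0.786 FPKM from 4 to 16 reads and was not tested. The kinases PDK1 and PDK3, which shut pyruvate dehydrogenase off, had log2 fold changes of 0.50 (adjusted p = 0.184) and 0.05 (adjusted p = 0.853). PDK1 was at 2.90 to 4.48 FPKM in EWSR1::FLI1high and at 3.94 to 7.68 FPKM in EWSR1::FLI1low cells, and PDK3 stayed between 2.33 and 3.01 FPKM.

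Among the 12 HIF factors, hydroxylases and classic targets outside glycolysis, 11 were tested: 3 rose (ADM, EPAS1 and CA12), 0 fell (by limma also 0 at an unadjusted p under 0.05, and 0 by limma-voom), 9 had a positive log2 fold change and the median was 0.56. Over all genes tested, 4.51% rose, 3.37% fell and 18.7% were lower at an unadjusted p under 0.05 by limma. A positive log2 fold change was found for 7012 of those 15504 genes, and limma-voom called 784 lower. The list of HIF genes was chosen with results of these data known, so its direction is a description. HIF1A was at 118, 115 and 135 FPKM in EWSR1::FLI1high and at 109, 208 and 177 FPKM in EWSR1::FLI1low cells, overlapping through replicate 1. Its log2 fold change was 0.38 (limma adjusted p = 0.316), and 0.65 without that library (adjusted p = 0.00978), and it overlaps an antisense transcript. EPAS1 accounted for 0.203%, 0.231% and 0.204% of the summed FPKM of the 2 factors in EWSR1::FLI1high and for 6.66%, 4.90% and 3.58% in EWSR1::FLI1low cells. HIF1A thus remained the more abundant mRNA by far in every library.

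The prolyl hydroxylases EGLN1 and EGLN3, which are also HIF targets, had log2 fold changes of 0.19 (adjusted p = 0.565) and 0.53 (adjusted p = 0.202). EGLN3 was at 1.80 to 2.14 FPKM in EWSR1::FLI1high and at 1.69, 4.52 and 4.29 FPKM in EWSR1::FLI1low cells. The 2 EWSR1::FLI1low libraries other than replicate 1 were thus above the EWSR1::FLI1high range, and without that replicate the adjusted p was 0.00513 in limma.

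BNIP3 and BNIP3L (NIX) tether mitochondria to the autophagy machinery and are both classic HIF targets, and the libraries of the 2 conditions did not overlap in the balance of the pair. BNIP3 was at 52.9, 57.5 and 57.4 FPKM in EWSR1::FLI1high and at 34.7, 59.6 and 56.5 FPKM in EWSR1::FLI1low cells, a log2 fold change of -0.19 (95% interval -0.71 to 0.33) that turned positive after quantile normalization (0.02) and without EWSR1::FLI1low replicate 1 (0.05). BNIP3L was at 34.5, 31.1 and 29.2 FPKM against 54.4, 75.0 and 55.3 FPKM. Its groups did not overlap, and its log2 fold change of 0.93 (SE 0.20) had an adjusted p of 0.0121 in limma, short of the limit but past it in 5 of 15 alternative fits. The share of BNIP3L in the summed FPKM of the pair was 39.5%, 35.1% and 33.8% in EWSR1::FLI1high and 61.0%, 55.7% and 49.5% in EWSR1::FLI1low cells. BNIP3 was thus the more abundant of the pair before knockdown, and after it BNIP3L was the more abundant in 2 of 3 libraries. BNIP3L overlaps PNMA2 on the opposite strand.

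P4HB, the disulfide isomerase that is also a subunit of collagen prolyl hydroxylase, was at 103, 104 and 123 FPKM in EWSR1::FLI1high and at 141, 236 and 209 FPKM in EWSR1::FLI1low cells. The groups did not overlap (log2 fold change 0.80, SE 0.22, limma adjusted p = 0.0349), and without EWSR1::FLI1low replicate 1 the adjusted p was 0.00136. KDM3A, a histone demethylase, was at 20.8 to 28.3 FPKM against 16.2 to 19.7 FPKM (log2 fold change -0.39, adjusted p = 0.188). ANKRD37 was at 0.691 to 1.63 FPKM against 1.57 to 3.52 FPKM (log2 fold change 0.56, adjusted p = 0.163).

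The balance within pairs of related genes was compared as the share of 1 gene in the summed FPKM of the pair. In 7 of 14 pairs the EWSR1::FLI1low libraries were all on one side of the EWSR1::FLI1high libraries. Of single genes, 41.1% were apart in this way in either direction, so that 7 of 14 is not far from that level. In the exact two-sided permutation test each of them reached p = 0.1, the smallest that 3 against 3 samples allow (0.2 after Benjamini-Hochberg adjustment over 14 pairs), so none could pass 0.05. The share of HK2 in the hexokinase pair was 20.5% ± 1.19 (SD, n = 3) in EWSR1::FLI1high and 10.7% ± 2.65 (SD, n = 3) in EWSR1::FLI1low cells. The share of ENO2 in the enolase pair was 3.89% ± 0.40 against 2.34% ± 0.64 (SD, n = 3 each), and that of ALDOC in the aldolase pair 1.57% ± 0.62 against 6.94% ± 4.10 (SD, n = 3 each). ALDOA, the main aldolase, was at 87.4, 77.2 and 89.8 FPKM in EWSR1::FLI1high and at 44.1, 72.1 and 98.0 FPKM in EWSR1::FLI1low cells, overlapping groups. PFKL, the liver-type phosphofructokinase, held 35.6%, 40.2% and 35.5% of its sum with the muscle type PFKM in EWSR1::FLI1high and 40.4%, 59.6% and 50.2% in EWSR1::FLI1low cells. Those ranges were almost touching, at 40.2% and 40.4%. PFKL itself was at 15.3, 15.6 and 15.9 FPKM against 12.8, 25.4 and 22.2 FPKM, a log2 fold change of 0.30 (limma adjusted p = 0.448) and of 0.58 without EWSR1::FLI1low replicate 1 (adjusted p = 0.0159). PFKM was at 27.8, 23.1 and 28.9 FPKM against 18.8, 17.2 and 22.1 FPKM. The brain types of aldolase and enolase differed in direction, ALDOC holding more and ENO2 less of its pair. The other pairs apart were EPAS1 with HIF1A, BNIP3L with BNIP3 and CA12 with CA9, the last resting on the few CA9 reads given above.

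**Figure D4:**
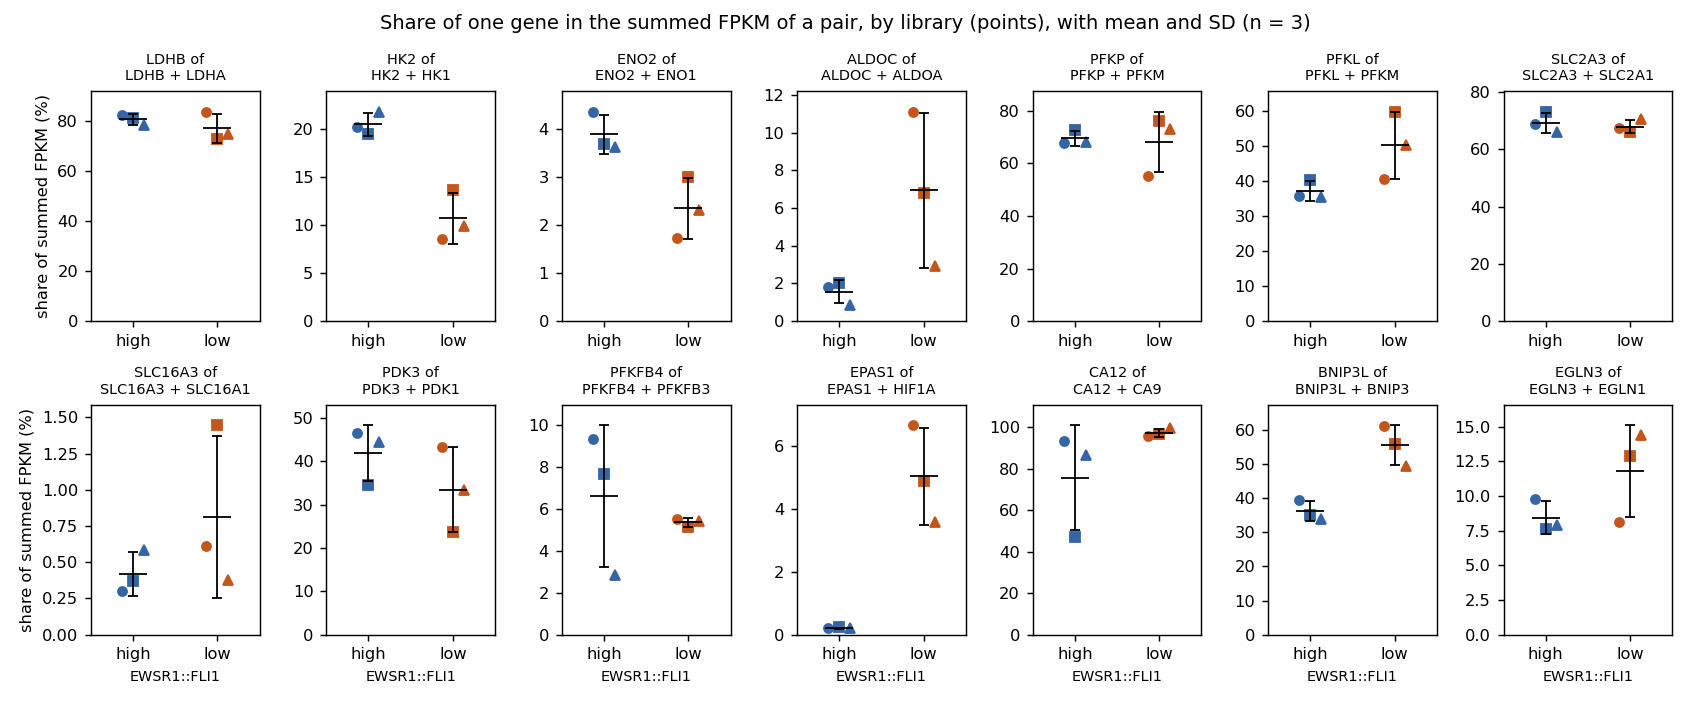
Share of the first gene in the summed FPKM of each of 14 pairs (vertical axis, percent, starting at 0) by library, blue for EWSR1::FLI1high and orange for EWSR1::FLI1low, with replicate 1, 2 and 3 as circle, square and triangle and black bars for the mean and SD (n = 3). HK2 and ENO2 are lower and EPAS1, BNIP3L and ALDOC higher in every EWSR1::FLI1low library, while LDHB, PFKP and SLC2A3 overlap.

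Other genes of the same pathways were taken from 7 lists with 88 genes, of which 67 were tested. Of these, 6 rose (8.96%, beside 4.51% of all genes), 2 fell (2.99%, beside 3.37%) and 59 did not pass the test. The number that rose depended on single libraries: it was 12 without EWSR1::FLI1low replicate 1, but 3 without EWSR1::FLI1high replicate 1 or EWSR1::FLI1low replicate 3 and 2 without EWSR1::FLI1high replicate 2 or 3. The share of all genes called higher moved the same way, at 9.37% in the first of these fits and at 2.41%, 2.70%, 1.85% and 2.08% in the others in that order. The number that fell was 0 without any 1 of the EWSR1::FLI1high replicates (1.01% to 1.29% of all genes) and 1 without EWSR1::FLI1low replicate 2 (1.80%).

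The list of 29 further HIF targets had 26 tested genes, of which 4 rose and 1 fell, with 21 positive log2 fold changes and a median of 0.50. Of all 15504 genes tested, 4.51% rose, 3.37% fell and 7012 had a positive log2 fold change, with a median of -0.05. LOX, which cross-links collagen, was at 1.61, 1.603 and 2.01 FPKM in EWSR1::FLI1high and at 49.1, 191 and 143 FPKM in EWSR1::FLI1low cells, a log2 fold change of 5.35 (SE 0.43, limma adjusted p = 0.000134). P4HA2, the catalytic partner of P4HB in collagen prolyl hydroxylase, was at 4.37, 5.98 and 6.11 FPKM against 28.9, 82.4 and 56.2 FPKM (log2 fold change 3.02). Both groups were far apart, and both genes were called in all 15 alternative fits. LOX and P4HA2 each overlap genes on the opposite strand, so that their reads may be mixed. NDRG1, a stress response gene, was at 0.767, 1.48 and 1.596 FPKM against 4.79, 20.6 and 13.6 FPKM (log2 fold change 2.44, adjusted p = 0.00496). EWSR1::FLI1low replicate 1 was the lowest of its group yet above every EWSR1::FLI1high library, and RORA, a nuclear receptor, rose from 1.68, 1.54 and 1.04 FPKM to 5.92, 5.13 and 3.97 FPKM (log2 fold change 1.31, adjusted p = 0.00211). CITED2, which competes with HIF for a coactivator, fell from 74.5, 73.5 and 84.3 FPKM to 30.2, 34.5 and 33.3 FPKM (log2 fold change -1.22, adjusted p = 0.00176). NDRG1 was called in 10, RORA in 13 and CITED2 in 12 of 15 alternative fits, and RORA overlaps antisense transcripts.

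At the same time the list was not uniform. VEGFA, the best known HIF target, was at 30.1, 34.4 and 31.7 FPKM in EWSR1::FLI1high and at 17.9, 55.4 and 22.6 FPKM in EWSR1::FLI1low cells, 1 library above and 2 below the EWSR1::FLI1high range (log2 fold change -0.17, limma adjusted p = 0.782). It was named for its role and not by size of change.

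**Figure D5:**
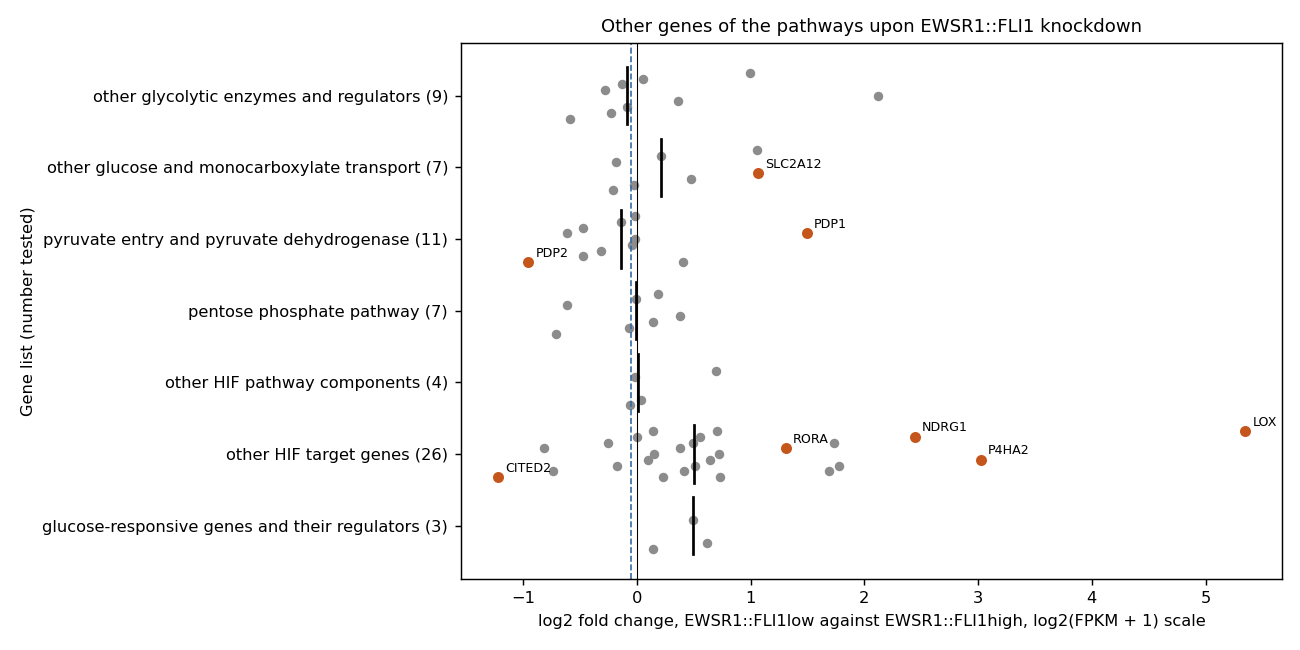
log2 fold change (horizontal axis, log2(FPKM + 1) scale) of the 67 tested genes of 7 further lists (rows, with the number tested), orange and named where the adjusted p was under 0.01, with a black bar at each list's median and a dashed line at the median of all genes (-0.05). Further HIF targets reach from CITED2 at -1.22 to LOX at 5.35, while the pentose phosphate genes stay within -0.71 to 0.38.

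Entry of pyruvate into mitochondria was represented by 11 genes, all tested, with 1 called in each direction, beside 4.51% of all genes that rose and 3.37% that fell. PDP1, a phosphatase that switches pyruvate dehydrogenase on, rose from 5.69, 7.19 and 7.28 FPKM to 13.9, 22.3 and 28.0 FPKM (log2 fold change 1.49, SE 0.25, limma adjusted p = 0.00471). PDP2, the other such phosphatase, fell from 7.29, 7.25 and 9.05 FPKM to 3.49, 3.19 and 4.03 FPKM (log2 fold change -0.95, SE 0.17, limma adjusted p = 0.00542). The groups did not overlap for either gene, and the 2 isoforms were called in opposite directions. The PDP1 call held in 9 and the PDP2 call in 10 of 15 alternative fits. Of 7 further transporter genes tested, SLC2A12, a glucose transporter, rose from 0.800, 0.964 and 0.623 FPKM to 2.53, 2.29 and 3.51 FPKM (log2 fold change 1.06, limma adjusted p = 0.00457). The SLC2A12 call held in 10 of 15 alternative fits, and SLC2A12 overlaps a gene on the opposite strand, so that their reads may be mixed. None of the 9 further glycolytic genes, the 4 further HIF pathway components, the 7 pentose phosphate genes or the 3 glucose-responsive genes tested was called by limma at 0.01 in either direction. At an unadjusted p under 0.05 they held 2, 1, 0 and 2 higher genes and 0, 0, 2 and 0 lower genes in that order, beside 15.6% of all genes that were higher and 18.7% that were lower by that rule, and limma-voom called 1 higher gene in each of the first 2 lists. ARNT, the partner of both HIF factors, was at 11.6 to 12.7 FPKM in all 6 libraries.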

How the data were processed

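RNAseq was measured in 6 libraries, 3 EWSR1::FLI1high and 3 EWSR1::FLI1low, prepared by the authors with ScriptSeq v2 after removal of ribosomal RNA. Per the submitters' processing notes and the paper, reads were aligned to GRCh37 with STAR 2.5.0b, and bedtools 2.17.0, Cufflinks 2.2.1 and DESeq2 1.6.3 were used. Whether counting used the strand was not given in the sources used here. The FPKM table deposited by the authors has 1 value per gene symbol and library and was already scaled between libraries. They also deposited a comparison table, of which only the mean normalized count per gene, a signal on the scale of reads divided by size factors, was used here; its fold changes and p-values were not used. From that mean, whole reads were recovered (100% of the values above 0 within 0.1 reads). The floor of 3 reads covers counting error only, and the 95% intervals from limma rest on the spread between the libraries.

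Genes with a mean of at least 0.5 FPKM (15504) were tested with limma 3.58.1 in R 4.3.3 (lmFit, eBayes with trend) on log2(FPKM + 1), with Benjamini-Hochberg adjustment over all of them and a limit of 0.01. A fold change on this scale understates that of low genes. The fit was tested on simulated data. Shares within gene pairs were compared with exact two-sided permutation tests in scipy 1.17.1. Alternatives were other pseudocounts, filters and scalings, a fit with the replicate number as block, eBayes with no trend, limma-voom on the recovered reads and fits without 1 library. Gene positions are from GENCODE lifted to GRCh37, and promoters from RefSeq (GRCh38.p14).

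The genes, the lists and the pairs were chosen with earlier results of these data known. The further lists were used without 1 gene, which is not reported here. Values in every library were given for called genes, for SLC2A1, LDHA and CA9 and for the genes of pairs whose shares did not overlap; of the further lists, up to 4 called genes per direction and list were named, and genes named beyond this were chosen for their role or after their values were seen. The design text calls the 3 samples of a condition independent clones and the titles number them as experiments, so p-values measure the spread between these samples, which may be technical.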

Additional observations from a re-analysis of the deposited data

How the results depend on the processing

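ADM, EPAS1 and CA12 were called in all 15 alternative fits, and ALDOC in 4 of them; the cause was not tested. The number of genes called higher was 4, and 3 to 9 when 1 library was left out, with 9 without EWSR1::FLI1low replicate 1, and 7 at an adjusted p under 0.05. The number called lower was 0, also in each fit without 1 library, and 2 at an adjusted p under 0.05. Of the further pathway genes, 6 were higher, 3 with no filter on low values, 10 with the replicate block, 14 at an adjusted p under 0.05 and 2 to 12 without 1 library. The number lower was 2, then 1 with no filter, 4 at an adjusted p under 0.05 and 0 to 3 without 1 library. Gene pairs apart numbered 7, and 7 to 11 without 1 library. Quantile normalization turned the log2 fold changes of LDHA (0.0094), SLC16A1 (0.064), PDK3 (-0.065) and BNIP3 (0.019). Without 1 library, those of PGK1 ranged from -0.48 to 0.0029, of PKM from -0.14 to 0.31, of LDHA from -0.41 to 0.15, of SLC16A1 from -0.24 to 0.035, of PDK3 from -0.033 to 0.099 and of BNIP3 from -0.33 to 0.054. Over all genes, 700 were higher and 522 lower, 287 to 1452 and 156 to 726 without 1 library, 992 and 1000 after quantile normalization, 456 and 297 with no filter, 994 and 813 with median-ratio scaling, 916 and 786 with the replicate block, and 1224 and 819 with equal FPKM sums, a setting chosen after seeing the data. Deviations from the group mean correlated at 0.27, 0.09 and 0.12 between same-numbered replicates of the 2 conditions. Between differently numbered replicates they correlated at -0.29, -0.05, -0.01, -0.09, 0.19 and -0.24. Whether the numbers pair the samples was not known, so the main fit did not pair them. In the replicate block the one change of call among the 35 genes was PFKFB3, which passed the limit. For genes such as CA9 and SLC16A3 depth was the limit, at 1 to 16 reads per library.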

Other observations

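Some genes of the further lists that did not pass the 0.01 limit are named here after their values were seen. Of 5 subunit genes of pyruvate dehydrogenase, PDHA1, PDHX, DLAT and DLD were below the EWSR1::FLI1high range in every EWSR1::FLI1low library. The same held for 23.6% of all genes. PDHA1, PDHX, DLAT and DLD each overlap a gene on the opposite strand, so that their reads may be mixed. EWSR1::FLI1low replicate 1 was the lowest library for all of them. PDHB overlapped between the groups (46.2, 54.8 and 50.4 FPKM against 37.1, 47.1 and 54.2 FPKM, log2 fold change -0.14). PDHA1 was at 70.3, 68.01 and 75.9 FPKM against 43.6, 52.3 and 58.2 FPKM (log2 fold change -0.48, limma adjusted p = 0.0988), and DLAT at 38.0, 39.0 and 45.9 FPKM against 18.3, 29.7 and 33.4 FPKM (log2 fold change -0.61, adjusted p = 0.110). A pair of HIF targets had negative changes beside the larger number with positive ones. HILPDA, a lipid droplet protein, was at 13.4, 11.9 and 12.3 FPKM against 5.65, 5.35 and 9.68 FPKM (log2 fold change -0.82, adjusted p = 0.0345), and FAM162A at 65.2, 82.5 and 60.7 FPKM against 32.7, 42.0 and 49.3 FPKM (log2 fold change -0.74, adjusted p = 0.0415).

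In the glycogen branch, GBE1, the branching enzyme, was at 6.64, 9.35 and 11.5 FPKM against 12.4, 57.6 and 49.2 FPKM (log2 fold change 1.77, limma adjusted p = 0.0371), and PGM1, which links glucose 1-phosphate to glucose 6-phosphate, at 3.69, 1.95 and 3.50 FPKM against 5.53, 7.49 and 7.81 FPKM (log2 fold change 0.99, adjusted p = 0.0165). GYS1, a glycogen synthase, was at 7.86 to 12.02 FPKM in all libraries (log2 fold change 0.00434, adjusted p = 0.992). The hexokinase-like gene HKDC1 was at 0.465, 1.09 and 0.770 FPKM against 1.40, 14.9 and 10.7 FPKM (log2 fold change 2.12, adjusted p = 0.0363), with EWSR1::FLI1low replicate 1 far below the other 2 libraries of its group.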
